A study of Mus musculus with 24 samples.

Results

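The immediate early response genes described here are 32 mouse genes taken by symbol from the 54429 rows of the deposited tables. The list was chosen with earlier results of these data known, and all 32 are named whatever their result. They are the AP-1 genes of the Fos, Jun, ATF and small Maf families, Srf and 2 Egr genes, 3 Nr4a receptors, 3 Klf factors, 3 Ier genes, 4 other regulators (Myc, Rel, Nfil3, Per1) and 6 genes of growth restraint, stress and survival (Btg1, Btg2, Gadd45b, Plk2, Plk3, Mcl1). They were compared in RNA-seq libraries of macrophages grown from C57BL/6N bone marrow with M-CSF at 10 ng/ml and replated on day 7. KO M2 is MK2 knockout with IL-4 at 10 ng/ml, KO M0 is MK2 knockout left unstimulated, WT M2 is MK2 wild type with the same IL-4 and WT M0 is MK2 wild type left unstimulated. Each group has 6 libraries, harvested 24 h after stimulation. In the labels an M0 library and an M2 library of the same genotype share each LS number, and the main fit treated them as unpaired. MK2, encoded by Mapkapk2, is a kinase activated by p38. The labels do not give the allele or the part of the gene deleted, the sex or age of the mice, or whether replicates were separate animals. The p-values therefore measure the spread between these libraries, which may be technical.

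Immediate early genes are switched on within minutes of a stimulus from transcription factors already in the cell, such as SRF with its ternary complex factors and CREB, and many of their short-lived mRNAs carry AU-rich elements. Many encode transcription factors that set the following wave of gene expression, and in macrophages they are best known from the first response to microbial products and growth factors. MK2 acts on tristetraprolin, a protein that destabilises AU-rich mRNAs, and IL-4 signals through STAT6. The libraries were taken long after the first wave, so the values are later levels and not peaks of induction.

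The start regions of 5 members that moved with IL-4 are printed to show what lies upstream of genes that went up and genes that went down. They come from RefSeq (GRCm38.p6), are read 5′ to 3′ on the gene's strand within the 250 bases before the start, and leave out bases that the GENCODE M21 annotation places in an exon. Nfil3 (chr13:52981074-52981289, minus strand), Ier3 (chr17:35821463-35821683, plus strand) and Plk3 (chr4:117133964-117134213, minus strand) rose with IL-4, and Fos (chr12:85473640-85473889, plus strand) and Nr4a1 (chr15:101266596-101266845, plus strand) fell. Capitals mark matches on either strand to a CRE-like motif (TGACGNA) or an EGR motif (GCGNGGGCG).
Nfil3: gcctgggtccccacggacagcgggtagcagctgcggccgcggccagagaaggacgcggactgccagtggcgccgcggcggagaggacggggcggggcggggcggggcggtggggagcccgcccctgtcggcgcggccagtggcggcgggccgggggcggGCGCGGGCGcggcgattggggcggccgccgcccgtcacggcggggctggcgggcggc
Ier3: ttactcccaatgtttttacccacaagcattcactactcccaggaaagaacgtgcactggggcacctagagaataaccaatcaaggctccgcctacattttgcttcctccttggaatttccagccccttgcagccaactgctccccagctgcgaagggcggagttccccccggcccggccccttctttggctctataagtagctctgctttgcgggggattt
Plk3: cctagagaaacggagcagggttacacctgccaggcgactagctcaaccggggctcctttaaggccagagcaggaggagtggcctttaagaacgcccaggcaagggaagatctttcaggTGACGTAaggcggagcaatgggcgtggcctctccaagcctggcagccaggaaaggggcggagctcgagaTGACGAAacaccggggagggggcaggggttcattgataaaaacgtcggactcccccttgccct
Fos: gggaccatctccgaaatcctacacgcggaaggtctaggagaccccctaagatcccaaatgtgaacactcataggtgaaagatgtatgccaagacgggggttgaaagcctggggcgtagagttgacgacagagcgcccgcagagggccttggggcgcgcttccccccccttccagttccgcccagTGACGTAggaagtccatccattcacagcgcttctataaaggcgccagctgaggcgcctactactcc
Nr4a1: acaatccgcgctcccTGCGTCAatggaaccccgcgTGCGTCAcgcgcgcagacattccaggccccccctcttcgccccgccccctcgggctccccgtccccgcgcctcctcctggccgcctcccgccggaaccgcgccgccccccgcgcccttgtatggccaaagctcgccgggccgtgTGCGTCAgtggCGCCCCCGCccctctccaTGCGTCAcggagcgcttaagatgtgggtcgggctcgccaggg
Plk3 and Fos, which moved in opposite directions, both hold TGACGTA, and Nr4a1 holds 4 CRE-like matches. The set of RefSeq start regions used here covered 26 of the 32 members, with 29 regions in all. It held no entry for Fosl1, Egr1, Egr3, Klf10, Ier2 and Myc, so no sequence was read for these genes. Of these 29 regions, 9 held the CRE-like motif, a share of 31.0%, against 4.46% of the 32817 start regions of all genes. The EGR motif stood in 11 (37.9%), against 4.70% of all, and the full CRE (TGACGTCA) in 3 (10.3%), against 1.55%. The CArG box bound by SRF was in 1 (3.45%), that of Srf itself, against 1.47% of all. Members without an entry, Egr1, Egr3 and Ier2 among them, and bases farther upstream than 250 were not searched. A CArG box there would not be counted. None of the 29 held the STAT6 motif (TTC, any 4 bases, GAA), found in 5.85% of all start regions, or the AP-1 motif TGANTCA, found in 6.75%. At such low shares 29 regions are too few for these counts of 0 to be read as a lack. Base composition of the regions was not taken into account for any motif. These letter matches describe the sequence, the motifs were searched on both strands, and none overlapped another kind in the printed regions.

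Total counts per library lay between 7893809 and 13492507, and the 32 genes held 0.255% to 0.305% of them. CPM here means counts scaled by the TMM-adjusted library size to a common total. Mapkapk2 (chr1:131053700-131097826, minus strand, GRCm38) had 47.8 to 60.7 CPM in KO M2 and 54.7 to 63.4 CPM in KO M0, against 113 to 139 CPM in WT M2 and 100.3 to 138 CPM in WT M0, so it was lower in every knockout library and still counted there, and what part of the gene those counts come from is not known from gene totals. The 8 macrophage markers, all with counts in every group, summed to 13044 to 15224 CPM in KO M2, 13626 to 16023 CPM in KO M0, 15344 to 19141 CPM in WT M2 and 15209 to 20117 CPM in WT M0. Of 15 stromal and fibroblast markers, 15 had counts in KO M2, 14 in KO M0 (Lum at 0), 15 in WT M2 and 15 in WT M0, and they summed to 7.12 to 17.5 CPM in KO M2, 7.70 to 23.1 CPM in KO M0, 83.6 to 123 CPM in WT M2 and 80.5 to 134 CPM in WT M0. The 7 osteoclast markers, with Calcr at 0 outside WT M2, summed to 1857 to 2696 CPM in KO M2, 969 to 1499 CPM in KO M0, 2035 to 2686 CPM in WT M2 and 1288 to 1997 CPM in WT M0. The 6 endothelial markers, mostly Vwf, all had counts in every group and summed to 176 to 262 CPM in KO M2, 90.3 to 106 CPM in KO M0, 128 to 184 CPM in WT M2 and 54.4 to 74.5 CPM in WT M0. The 8 T and NK cell markers, with Ncr1 at 0 in KO M2, summed to 11.4 to 22.5 CPM in KO M2, 22.4 to 32.6 CPM in KO M0, 12.8 to 31.997 CPM in WT M2 and 17.6 to 44.2 CPM in WT M0. The 8 neutrophil markers summed to 75.6 to 142 CPM in KO M2, 94.9 to 171 CPM in KO M0, 96.1 to 267 CPM in WT M2 and 162 to 235 CPM in WT M0. The 8 erythroid and megakaryocyte markers lay between 75.9 and 185 CPM in every library, and the highest sums in any library were 4.92 CPM for the 5 B cell markers, 13.3 CPM for the 7 mast cell, basophil and eosinophil markers and 5.70 CPM for the 6 dendritic cell markers. In such bulk samples, fewer cells of a type and less RNA per cell cannot be told apart.

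Atf3, a stress-induced bZIP factor, was the most abundant of the 32 genes per unit of gene length in every group. On the authors' GETMM scale, which adjusts for gene length and library, its lowest, median and highest levels were 1281, 1420.1 and 1501 in KO M2, 787, 889 and 1021 in KO M0, 1290.2, 1319 and 1379.6 in WT M2 and 792, 849 and 980.2 in WT M0. Atf3 alone made up a median of 49.1% of the summed GETMM of the 32 genes in KO M2, 39.4% in KO M0, 48.4% in WT M2 and 38.6% in WT M0. Mcl1, a BCL2-family survival factor, came next in each group, with median GETMM of 361 in KO M2, 407 in KO M0, 371 in WT M2 and 402 in WT M0. Plk2, a Polo-like kinase, followed, at 225 in KO M2, 216 in KO M0, 200.2 in WT M2 and 195 in WT M0. At the other end, Nr4a3, Egr3, Fosb, Nr4a2 and Fosl1 had the 5 lowest medians in every group, with Nr4a3 at 0.0967 in KO M2 and 0.248 in WT M0. Neighbours in the order mostly overlapped: of 31 neighbouring pairs, 24 overlapped between libraries in KO M2, 24 in KO M0, 24 in WT M2 and 23 in WT M0.

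**Figure D1:**
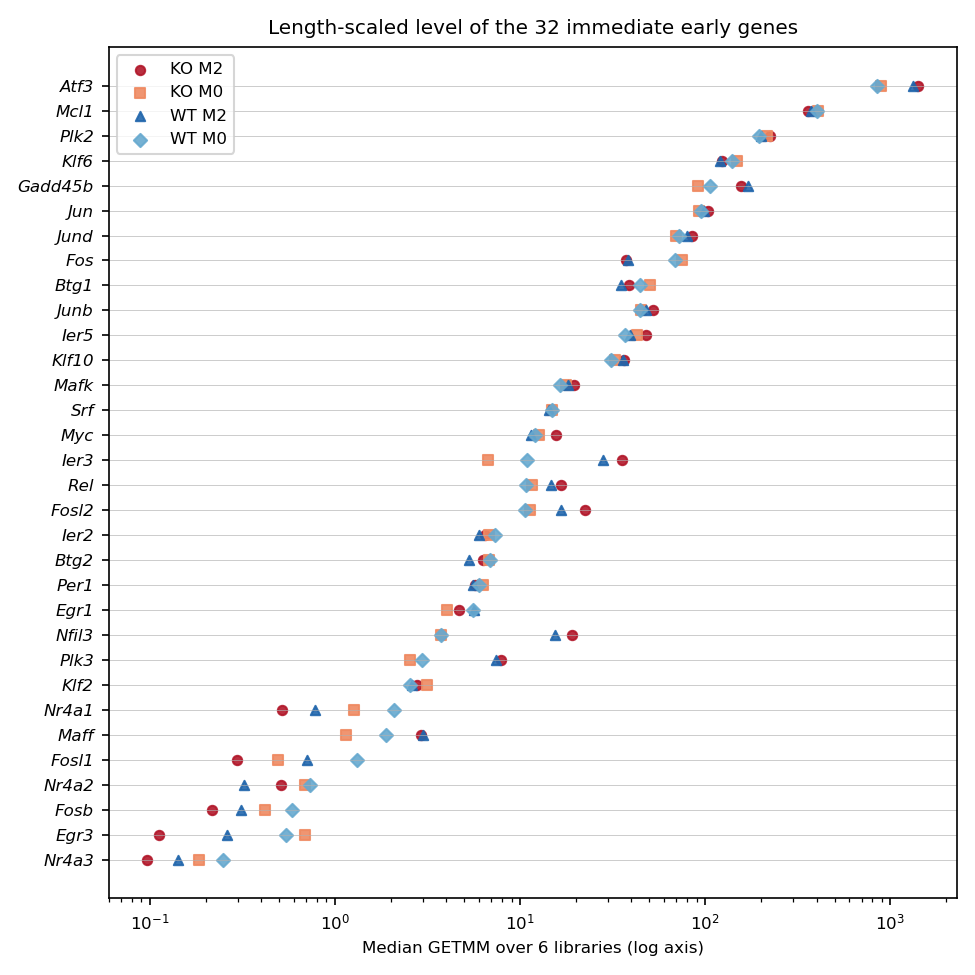
Median GETMM (log axis) of each of the 32 genes over the 6 libraries of KO M2, KO M0, WT M2 and WT M0, ordered by level. Atf3 lies highest in every group, at medians between 849 and 1420.1, and Nfil3, Ier3, Plk3 and Fosl2 show the M2 points to the right of the M0 points.

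With IL-4, 14 of the 29 immediate early genes that passed the count filter changed in knockout macrophages, 9 higher and 5 lower. In wild-type macrophages 13 of 29 changed, 9 higher and 4 lower. Nfil3, Ier3, Plk3, Maff, Fosl2, Gadd45b, Atf3 and Rel rose in both genotypes, and Fos, Nr4a1, Klf6 and Btg1 fell in both. Jun rose and Egr3 fell in the knockout fit, and Mafk rose in the wild-type fit. Among all 12797 genes tested, 23.6% passed the same threshold (edgeR quasi-likelihood test, Benjamini-Hochberg adjusted p below 0.05) in the knockout, 12.2% higher and 11.4% lower, and 16.4% in the wild type, 8.49% higher and 7.95% lower. The median log2 fold change over the 29 genes was 0.17 in the knockout and 0.11 in the wild type, and the median over all genes tested was -0.0038 in the knockout and -0.02 in the wild type. All M2 libraries lay above or below all M0 libraries for 11 of the 29 genes in the knockout, against 14.0% of all genes, and for 10 in the wild type, against 8.16% of all genes. In replicates 1 to 3 alone 9 genes passed in the knockout (11.5% of all genes) and 8 in the wild type (6.72%), and in replicates 4 to 6 alone 15 in the knockout (21.2%) and 13 in the wild type (13.1%). The library numbers in the labels run in separate sets, and nothing in the labels calls them batches. Replicates 4 to 6 are 1 such set, and replicates 1 to 3 hold another together with 3 libraries numbered apart (KO M2 replicate 2, WT M2 replicate 2 and WT M0 replicate 3). Fosb, Fosl1 and Nr4a3 did not pass the filter. Because the list was chosen with earlier results known, these counts beside the shares of all genes are no test of the set. The osteoclast and endothelial marker sums were higher and the T and NK cell and neutrophil sums had a lower median in M2 than in M0 of each genotype. The endothelial sum was mostly Vwf, and its 3 tested markers went both ways. With IL-4, 2 passed as higher in each genotype, and 1 passed as lower in the knockout and was negative without passing in the wild type. The part of such cells in the results was not tested.

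**Figure D2:**
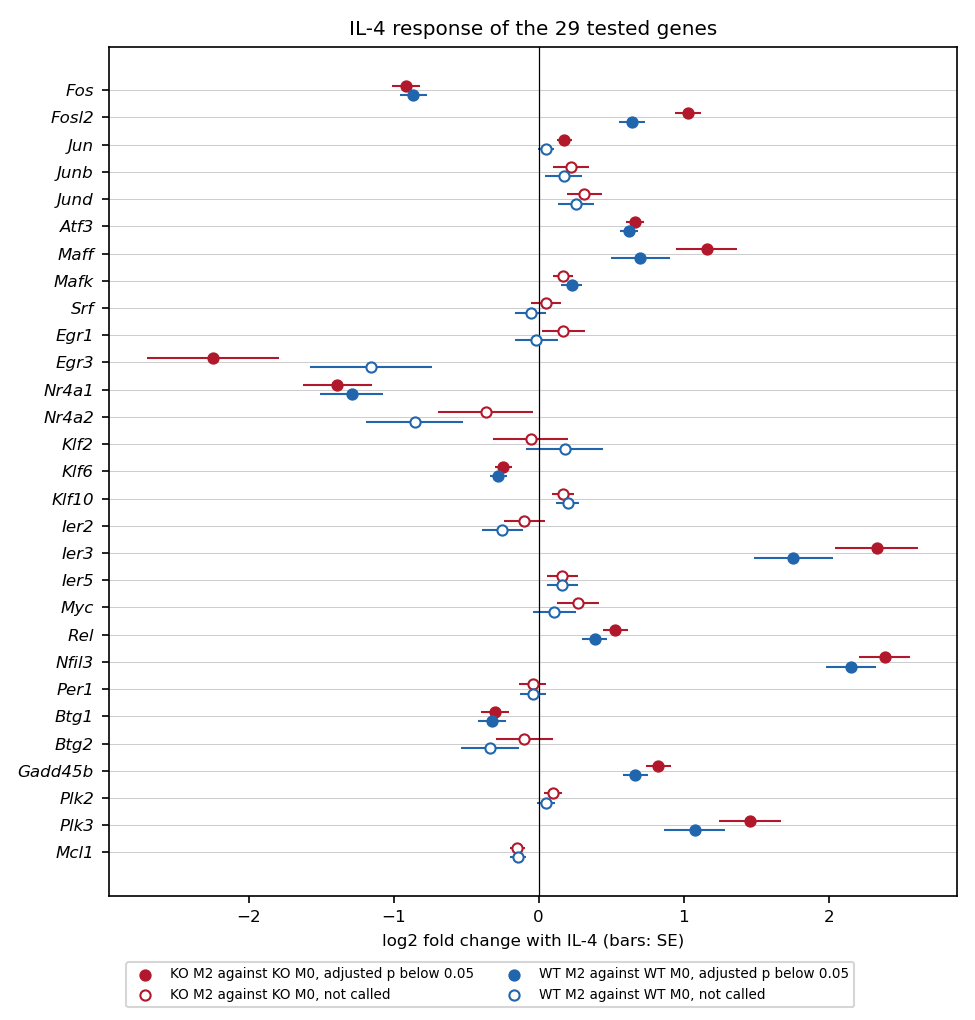
Log2 fold change with IL-4 of the 29 tested genes, KO M2 against KO M0 in red and WT M2 against WT M0 in blue, with bars of 1 standard error and filled points for an adjusted p below 0.05. Nfil3 and Ier3 lie farthest to the right in both genotypes, and Egr3 and Nr4a1 are the 2 genes farthest to the left in both.

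The Fos family, whose proteins pair with Jun proteins in AP-1, was divided. Fosl2, which encodes FRA-2, had 56.4, 63.2 and 70.7 CPM in KO M2, against 26.4, 31.2 and 33.8 CPM in KO M0, given as the lowest, median and highest of 6 libraries. Its WT libraries had 35.4, 46.9 and 56.2 CPM in WT M2, against 26.4, 30.0 and 33.9 CPM in WT M0. No M2 library overlapped an M0 library of its genotype, and the log2 fold change was 1.03 ± 0.09 (SE) in the knockout, with adjusted p = 1.87e-09 in edgeR's test, and 0.64 ± 0.09 in the wild type, with adjusted p = 9.19e-06. Fos moved the other way. It had 26.2, 31.0 and 41.6 CPM in KO M2, against 50.3, 62.3 and 68.7 CPM in KO M0. Its wild-type values were 29.7, 31.5 and 34.0 CPM in WT M2, against 49.4, 57.7 and 65.3 CPM in WT M0. Its groups again did not overlap, with log2 fold changes of -0.92 ± 0.09 in the knockout (edgeR adjusted p = 3.94e-08) and -0.86 ± 0.09 in the wild type (edgeR adjusted p = 2.06e-07). The ratio of Fos to Fosl2 on the GETMM scale, which sets both per gene length, had a lowest, median and highest value of 1.38, 1.75 and 2.15 in KO M2, against 5.69, 6.71 and 7.48 in KO M0. In WT M2 the ratio was 1.79, 2.36 and 2.96, against 5.19, 6.62 and 7.44 in WT M0. In every M2 library the ratio was below that in every M0 library.

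Fosb and Fosl1, which encode the related proteins FOSB and FRA-1, were too low for the filter. Fosb had 0, 0.363 and 0.471 CPM in KO M2, against 0.510, 0.711 and 1.31 CPM in KO M0. Among WT libraries it had 0.112, 0.530 and 0.916 CPM in WT M2, against 0.589, 1.00 and 1.27 CPM in WT M0. A single KO M2 library had 0 Fosb counts, which allows up to 0.361 CPM there (3 counts, counting error only). Without the filter, over 32242 genes, its log2 fold change was -1.28 ± 0.45 in the knockout with adjusted p = 0.0751 in edgeR's test, and -0.78 ± 0.41 in the wild type with adjusted p = 0.381. Fosl1 had 0.112, 0.286 and 0.471 CPM in KO M2, against 0.0850, 0.481 and 0.700 CPM in KO M0. Wild-type macrophages had 0.374, 0.684 and 0.890 CPM in WT M2, against 0.707, 1.26 and 1.65 CPM in WT M0. Its unfiltered log2 fold change with IL-4 was -0.63 ± 0.46 in the knockout, with adjusted p = 0.544 in edgeR's test, and -0.77 ± 0.37 in the wild type, with adjusted p = 0.326. No value of either gene passed the threshold with IL-4. All KO M2 libraries lay below all KO M0 libraries for Fosb, while its wild-type groups and both pairs of Fosl1 groups overlapped.

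The Jun family moved little. Jun had 179.8, 188 and 203 CPM in KO M2, against 157, 167 and 174 CPM in KO M0. Its wild-type levels were 165, 179 and 186 CPM in WT M2, against 153, 169 and 194 CPM in WT M0. All KO M2 libraries lay above all KO M0 libraries, while the wild-type groups overlapped, and the log2 fold change was 0.18 ± 0.05 in the knockout (edgeR adjusted p = 0.0154) and 0.05 ± 0.05 in the wild type (edgeR adjusted p = 0.571). The knockout call was lost without the count filter and in each of the 2 sets of 3 replicates. Junb and Jund did not pass in either genotype, with log2 fold changes of 0.22 in the knockout and 0.17 in the wild type for Junb and 0.32 in the knockout and 0.26 in the wild type for Jund. DESeq2 called Jund higher in the knockout. Some members share exon positions with a neighbour in the annotation, Junb with Prdx2, Jund with Gm11175, Jun with Junos, Fosl1 with Ccdc85b, Mafk with Tmem184a and Plk3 with Tctex1d4. No source used here says if the counting used strand, so antisense reads within such a pair cannot be told apart, and none of the neighbours that were tested passed in any comparison. Jund's neighbour Gm11175 had summed counts of 90 in KO M2, 13 in KO M0, 33 in WT M2 and 48 in WT M0.

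Among the ATF and Maf members, which also form bZIP pairs, all 3 had positive fold changes in both genotypes. Atf3 had 614, 697 and 735 CPM in KO M2, against 378, 433 and 494 CPM in KO M0. In the wild type it had 631, 642 and 669 CPM in WT M2, against 392, 417 and 468 CPM in WT M0. The groups were apart in both genotypes, at log2 fold changes of 0.67 ± 0.06 in the knockout (edgeR adjusted p = 1.12e-08) and 0.62 ± 0.06 in the wild type (edgeR adjusted p = 7.70e-08). Maff, a small Maf protein without an activation domain of its own, had 1.90, 3.17 and 4.31 CPM in KO M2, against 1.11, 1.23 and 1.97 CPM in KO M0. Its WT libraries had 2.23, 3.23 and 4.06 CPM in WT M2, against 1.33, 2.07 and 2.43 CPM in WT M0. Its groups overlapped in both genotypes, and its log2 fold changes of 1.16 ± 0.21 in the knockout (edgeR adjusted p = 1.70e-04) and 0.70 ± 0.20 in the wild type (edgeR adjusted p = 0.0180) passed the threshold. Mafk, another small Maf, ranged over 27.4 to 33.0 CPM in KO M2 and 23.8 to 28.9 CPM in KO M0, and over 27.0 to 32.4 CPM in WT M2 and 21.1 to 26.3 CPM in WT M0. It rose in the wild type, by a log2 fold change of 0.23 ± 0.07 (edgeR adjusted p = 0.0246), and had 0.17 ± 0.07 in the knockout (edgeR adjusted p = 0.0772). Leaving out WT M2 replicate 2, WT M0 replicate 1 or WT M0 replicate 4 took the Mafk call away, at adjusted p = 0.0694, 0.0618 and 0.0622 in edgeR's test.

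Nfil3 had the largest IL-4 fold change of the 29 tested genes in both genotypes. It encodes a bZIP repressor that responds to IL-4 in lymphoid cells. It had 18.0, 22.0 and 26.6 CPM in KO M2, against 3.13, 4.24 and 5.20 CPM in KO M0, at a log2 fold change of 2.39 ± 0.17 (edgeR adjusted p = 1.28e-10). Its wild-type values were 13.6, 17.9 and 29.5 CPM in WT M2, against 4.12, 4.31 and 5.08 CPM in WT M0, at 2.15 ± 0.17 (edgeR adjusted p = 1.70e-09). The lowest M2 library was above the highest M0 library in both genotypes, and the WT M2 libraries fell into 2 levels, with 15.1, 13.6 and 14.8 CPM in its replicates 4 to 6 and 25.7, 29.5 and 20.7 CPM in the other 3. Rel, the c-Rel subunit of NF-kB, ranged over 57.4 to 83.5 CPM in KO M2 and 47.0 to 51.5 CPM in KO M0, a log2 fold change of 0.53 ± 0.09 (edgeR adjusted p = 3.79e-05). In the wild type it ranged over 56.3 to 70.1 CPM in WT M2 and 39.5 to 59.4 CPM in WT M0, a log2 fold change of 0.39 ± 0.09 (edgeR adjusted p = 0.00216), with the highest WT M0 library above 2 of the WT M2 libraries. Myc, the growth factor-responsive bHLH regulator, and Per1, a clock repressor, did not pass: Myc had log2 fold changes of 0.27 in the knockout and 0.11 in the wild type, and Per1 had -0.04 in the knockout and -0.04 in the wild type.

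Ier3, a stress-induced regulator of cell survival, followed Nfil3 in size. It had 15.0, 22.9 and 26.0 CPM in KO M2, against 3.16, 4.31 and 5.50 CPM in KO M0, at a log2 fold change of 2.33 ± 0.29 (edgeR adjusted p = 1.47e-06). Among WT libraries it had 12.8, 18.1 and 44.3 CPM in WT M2, against 4.08, 6.89 and 11.7 CPM in WT M0, at 1.76 ± 0.27 (edgeR adjusted p = 6.03e-05). The M2 and M0 libraries did not overlap in either genotype, and the spread was widest in WT M2, with 17.5, 12.8 and 16.5 CPM in its replicates 4 to 6 and 36.8, 44.3 and 18.7 CPM in the other 3. Ier2 and Ier5, nuclear proteins induced by growth factors and stress, did not pass. Ier2 had log2 fold changes of -0.10 in the knockout and -0.25 in the wild type, and Ier5 had 0.16 in the knockout and 0.16 in the wild type.

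Plk3 and Gadd45b rose in the group of growth restraint, stress and survival genes, Btg1 fell, and Btg2, Plk2 and Mcl1 did not pass. Plk3, a stress-responsive Polo-like kinase, had 7.57, 9.70 and 11.9 CPM in KO M2, against 1.97, 3.05 and 5.15 CPM in KO M0, a log2 fold change of 1.46 ± 0.21 (edgeR adjusted p = 8.86e-06). Wild-type macrophages had 5.71, 9.09 and 9.75 CPM in WT M2, against 2.76, 3.62 and 5.99 CPM in WT M0, a log2 fold change of 1.08 ± 0.21 (edgeR adjusted p = 6.04e-04). Its groups were apart in the knockout, and in the wild type 1 WT M2 library lay below the highest WT M0 library. Gadd45b, a stress sensor that can activate the p38 pathway, had 73.0, 81.9 and 92.0 CPM in KO M2, against 37.2, 47.6 and 54.7 CPM in KO M0, a log2 fold change of 0.82 ± 0.09 (edgeR adjusted p = 5.30e-08). Its wild-type levels were 83.5, 88.9 and 97.3 CPM in WT M2, against 48.6, 55.9 and 62.0 CPM in WT M0, a log2 fold change of 0.66 ± 0.09 (edgeR adjusted p = 2.99e-06). The Gadd45b groups did not overlap in either genotype. Btg1, an antiproliferative partner of the CCR4-NOT deadenylase, had 63.6, 72.8 and 87.9 CPM in KO M2, against 74.1, 93.1 and 105 CPM in KO M0. In the wild type it had 60.9, 65.5 and 77.4 CPM in WT M2, against 76.3, 82.3 and 101 CPM in WT M0. These ranges overlapped, and its log2 fold changes of -0.30 ± 0.10 in the knockout (edgeR adjusted p = 0.0219) and -0.32 ± 0.10 in the wild type (edgeR adjusted p = 0.0223) depended on single libraries. The Btg1 call was lost in the knockout without KO M2 replicate 1, 2 or 3 or KO M0 replicate 5 or 6, with adjusted p between 0.0545 and 0.0659 in edgeR's test, and in the wild type without WT M2 replicate 2 or WT M0 replicate 2, with 0.0506 and 0.0654. Btg2, a relative of Btg1, had log2 fold changes of -0.10 in the knockout and -0.33 in the wild type, Plk2 had 0.10 in the knockout and 0.05 in the wild type, and Mcl1 had -0.15 in the knockout and -0.14 in the wild type. Mcl1 was close to the threshold (edgeR adjusted p = 0.0523 in the knockout and 0.0822 in the wild type) and passed under several alternatives, among them 7 of the 24 fits that left out 1 library in the knockout and the fit without WT M0 replicate 3 in the wild type.

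The nuclear receptor gene Nr4a1, which encodes NUR77, had 0.377, 0.661 and 0.784 CPM in KO M2, against 1.08, 1.61 and 2.32 CPM in KO M0. Its WT libraries had 0.781, 1.01 and 1.52 CPM in WT M2, against 1.75, 2.70 and 3.20 CPM in WT M0. These rest on few counts, with sums over 6 libraries of 36 in KO M2, 99 in KO M0, 63 in WT M2 and 150 in WT M0. Every M2 library lay below every M0 library of its genotype, at log2 fold changes of -1.39 ± 0.24 in the knockout (edgeR adjusted p = 8.92e-05) and -1.29 ± 0.22 in the wild type (edgeR adjusted p = 1.19e-04). The related Nr4a2 had log2 fold changes of -0.37 in the knockout (edgeR adjusted p = 0.492) and -0.86 in the wild type (edgeR adjusted p = 0.0829). The wild-type value passed without WT M2 replicate 3, at -1.20 (edgeR adjusted p = 0.0153), and without WT M0 replicate 6, at -0.99 (edgeR adjusted p = 0.0447). Nr4a3 was under the filter, at 0.112 to 0.783 CPM in KO M2, 0.361 to 1.40 CPM in KO M0, 0.187 to 0.611 CPM in WT M2 and 0.391 to 0.874 CPM in WT M0, and its unfiltered log2 fold change was -1.09 ± 0.45 in the knockout and -0.68 ± 0.44 in the wild type, not past the threshold.

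Egr3, an inducible zinc-finger factor, rested on few counts, with summed counts over 6 libraries of 14 in KO M2, 71 in KO M0, 26 in WT M2 and 57 in WT M0. It had 0, 0.207 and 0.448 CPM in KO M2, against 0.361, 1.23 and 2.20 CPM in KO M0. Its wild-type values were 0.204, 0.477 and 0.623 CPM in WT M2, against 0.707, 0.995 and 1.26 CPM in WT M0. A single KO M2 library had 0 counts, which allows up to 0.335 CPM. The knockout groups overlapped and the wild-type groups did not, with log2 fold changes of -2.25 ± 0.45 in the knockout (edgeR adjusted p = 5.31e-04) and -1.16 ± 0.42 in the wild type (edgeR adjusted p = 0.0614). The wild-type value passed in 4 of the 24 fits that left out 1 library, each of them a knockout library, and under several other alternatives. Egr1, its better-known relative, and Srf, the serum response factor, did not pass, at log2 fold changes of 0.17 in the knockout and -0.02 in the wild type for Egr1 and 0.05 in the knockout and -0.05 in the wild type for Srf. In the Klf family of zinc-finger factors, Klf6 fell in both genotypes. It had 262, 297 and 310.3 CPM in KO M2, against 328, 349 and 360.3 CPM in KO M0, at a log2 fold change of -0.25 ± 0.06 (edgeR adjusted p = 0.00253). Among WT libraries it had 239.6, 288 and 294 CPM in WT M2, against 300.3, 339 and 385 CPM in WT M0, at -0.28 ± 0.06 (edgeR adjusted p = 0.00132). The M2 libraries lay below the M0 libraries in both genotypes, a small and separated change. Klf10, induced by TGF-beta, had log2 fold changes of 0.17 in the knockout and 0.20 in the wild type, and Klf2, known as a restraint on macrophage activation, had -0.05 in the knockout and 0.18 in the wild type. None of these 4 values passed, although both Klf10 values did without the 3 libraries numbered apart, with edgeR adjusted p of 0.0166 in the knockout and 0.0257 in the wild type.

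**Figure D3:**
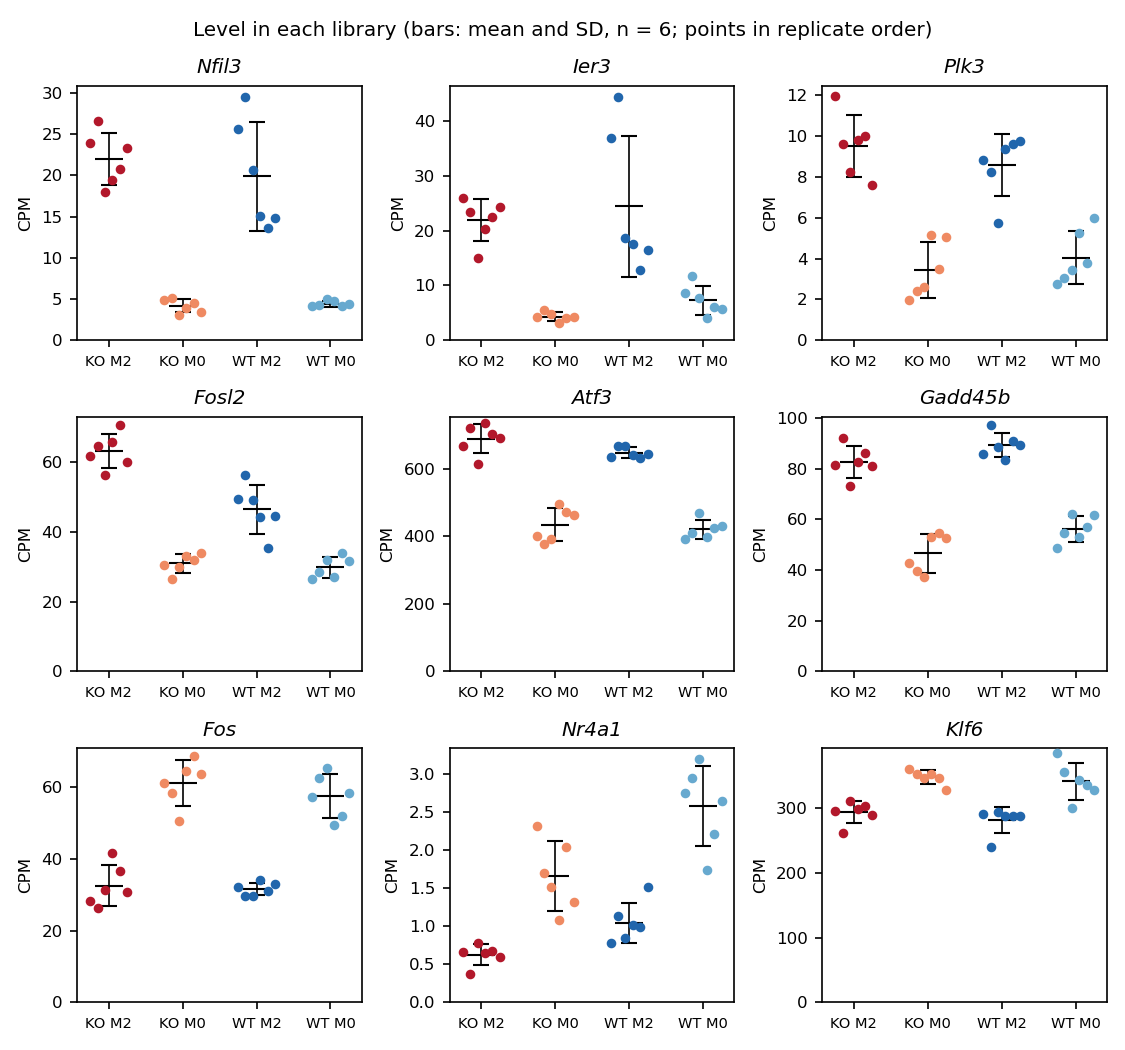
CPM of 9 genes in each library of KO M2, KO M0, WT M2 and WT M0, with points in replicate order from left to right and bars of the mean and SD (n = 6). In the 6 upper panels the M2 libraries lie above the M0 libraries, with 1 WT M2 library of Plk3 in the WT M0 range, and in the bottom row they lie below. The WT M2 points of replicates 1 to 3 lie above those of replicates 4 to 6 for Nfil3 and Ier3.

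The knockout and wild-type responses to IL-4 were then set against each other in the same fit. None of the 29 genes passed the test of the difference between the responses, and neither did any of the 12797 genes (0%). At an unadjusted p below 0.05 stood 1 of the 29 genes, near the share of all genes (390, or 3.05%), and DESeq2 called 0 of the 29 and 1 gene of all. The member with an unadjusted p below 0.05, Fosl2, was not called by either tool. Its fitted difference, knockout minus wild type, was 0.39 ± 0.13 on the log2 scale, with an adjusted p of 1.000 in edgeR's test. The fitted differences of Egr3 at -1.09 ± 0.63, Ier3 at 0.57 ± 0.39, Nr4a2 at 0.49 ± 0.47 and Maff at 0.46 ± 0.29 were larger in size and had larger standard errors. The median difference over the 29 genes was 0.06.

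In KO M2 against WT M2, 2 of the 29 genes passed, both higher in the knockout, and 0 were lower. Among all genes tested 4.59% passed, 1.51% higher and 3.09% lower. Fosl2 had 56.4, 63.2 and 70.7 CPM in KO M2, against 35.4, 46.9 and 56.2 CPM in WT M2. The lowest KO M2 library lay just above the highest WT M2 library, and the log2 fold change was 0.44 ± 0.09 (edgeR adjusted p = 0.00161). Without IL-4 it had 26.4, 31.2 and 33.8 CPM in KO M0, against 26.4, 30.0 and 33.9 CPM in WT M0, with overlapping groups and a log2 fold change of 0.05 ± 0.09 (edgeR adjusted p = 0.862). Plk2 had 292, 323 and 358 CPM in KO M2, against 254, 287 and 295 CPM in WT M2. Its groups overlapped slightly, and its log2 fold change of 0.22 ± 0.06 was close to the threshold (edgeR adjusted p = 0.0434). Without IL-4 Plk2 had 265, 309 and 341 CPM in KO M0, against 237, 283 and 287 CPM in WT M0, with 0.18 ± 0.06 and an edgeR adjusted p of 0.151. Leaving out 1 library took the Plk2 call away in 13 of 24 fits, among them each of the 6 WT M2 libraries and KO M2 replicates 2 to 6, with edgeR adjusted p between 0.0504 and 0.123. Fosl2 was the only one of the 29 genes whose KO M2 and WT M2 libraries were apart. This count is near the share over all genes, 3.63%, and so does not set the 29 genes apart from the rest. The median log2 fold change over the 29 genes was 0.06, against 0.01 over all genes.

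In KO M0 against WT M0, 0 of the 29 genes passed, against 4.52% of all genes tested (1.10% higher, 3.42% lower). At an unadjusted p below 0.05 stood 7 of the 29 genes and 15.1% of all genes, and DESeq2 called 0 of the 29. Log2 fold changes of the 29 genes were balanced, 15 positive and 14 negative, with a median of 0.0091 and a highest of 0.30. The median over all genes was -0.0069. The largest negative log2 fold changes were those of Ier3 at -0.74 ± 0.30 (edgeR adjusted p = 0.217), Nr4a1 at -0.64 ± 0.21 (edgeR adjusted p = 0.0912), Maff at -0.51 ± 0.22 (edgeR adjusted p = 0.246) and Egr1 at -0.45 ± 0.15 (edgeR adjusted p = 0.1002). Nr4a1 had 1.08, 1.61 and 2.32 CPM in KO M0, against 1.75, 2.70 and 3.20 CPM in WT M0, and with IL-4 it had 0.377, 0.661 and 0.784 CPM in KO M2, against 0.781, 1.01 and 1.52 CPM in WT M2. These ranges overlapped in both states, and with IL-4 its log2 fold change was -0.73 ± 0.25 (edgeR adjusted p = 0.159). Gadd45b was at -0.27 ± 0.09 (edgeR adjusted p = 0.0786), and it passed on the lower side without KO M0 replicate 4 or 5 or WT M0 replicate 1. Egr1 passed on the lower side without KO M0 replicate 3, at -0.54 (edgeR adjusted p = 0.0434). Fosl1 had 0.0850, 0.481 and 0.700 CPM in KO M0, against 0.707, 1.26 and 1.65 CPM in WT M0, so the groups did not overlap, as for 3.48% of the genes that passed the filter. Its unfiltered log2 fold change was -1.37 ± 0.39 (edgeR adjusted p = 0.0592), and with IL-4 it was -1.24 ± 0.44 (edgeR adjusted p = 0.225). The stromal marker sum given above was lower in every knockout library than in any wild-type library, and its part in the genotype values of the 32 genes was not tested.

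The genes called between genotypes differed with the replicates used. In replicates 1 to 3, 0 of the 29 genes passed with IL-4 (2.41% of all genes) and 0 without it (3.48%). In replicates 4 to 6, 8 passed with IL-4, all higher in KO M2 (8.28% of all genes), and 7 without it, 6 higher and 1 lower in KO M0 (7.45%). The 8 were Fosl2 (0.66), Btg2 (0.62), Nfil3 (0.54), Ier3 (0.52), Rel (0.35), Btg1 (0.28), Plk2 (0.25) and Atf3 (0.15), given as log2 fold changes. In replicates 1 to 3 the same genes had 0.24 for Fosl2, -0.37 for Btg2, -0.15 for Nfil3, -0.64 for Ier3, 0.05 for Rel, -0.01 for Btg1, 0.20 for Plk2 and 0.02 for Atf3. The signs of Ier3, Nfil3, Btg2 and Btg1 were opposite in the 2 sets, and those of Fosl2, Rel, Plk2 and Atf3 were the same. The 8 were picked for passing in replicates 4 to 6, so smaller values in replicates 1 to 3 follow in part from that choice. None of them passed in replicates 1 to 3, and the sign of Btg1 rests on -0.01 there. Fosl2 had an adjusted p of 0.446 in replicates 1 to 3 and 1.91e-04 in replicates 4 to 6 by edgeR's test. The 7 without IL-4 were Ier5 (0.41), Btg1 (0.33), Fos (0.31), Junb (0.28), Atf3 (0.20), Plk2 (0.20) and, lower, Egr1 (-0.75). With IL-4, 11 of the 29 fold changes were positive in replicates 1 to 3 and 23 in replicates 4 to 6, and without IL-4 10 were positive in replicates 1 to 3 and 17 in replicates 4 to 6. The share of positive fold changes over all genes in each set was not counted, so these counts are not read as particular to the 29 genes. The difference between the 2 sets was not tested.

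Different groups carried the contrast between the 2 sets of replicates. Ier3 averaged 21.4 ± 5.75 CPM in replicates 1 to 3 of KO M2 and 33.3 ± 13.1 CPM in those of WT M2 (SD, n = 3 each). In replicates 4 to 6 it averaged 22.4 ± 1.97 CPM in KO M2 and 15.6 ± 2.45 CPM in WT M2. For Ier3 it was thus the wild-type libraries that differed between the sets, and WT M2 replicate 2, numbered apart, had the highest Ier3 and the highest Nfil3 value. For Nfil3 it was the WT M2 libraries only. It averaged 22.9 ± 4.37 CPM in KO M2 and 25.3 ± 4.43 CPM in WT M2 in replicates 1 to 3. In replicates 4 to 6 the Nfil3 means were 21.2 ± 1.97 CPM in KO M2 and 14.5 ± 0.800 CPM in WT M2. Its WT M0 means were 4.49 CPM in replicates 1 to 3 and 4.42 CPM in replicates 4 to 6. For Btg2 it was the knockout libraries, which averaged 12.4 ± 0.324 CPM in replicates 4 to 6 of KO M2 and 6.70 ± 1.18 CPM in its other 3. Those of KO M0 averaged 12.9 ± 0.899 CPM in replicates 4 to 6 and 7.28 ± 1.27 CPM in the other 3. The Btg2 values ranged over 7.47 to 9.26 CPM in WT M2 and 8.28 to 12.7 CPM in WT M0. Replicates 4 to 6 of both knockout groups lay above replicates 1 to 3, with no such step in the wild type.

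**Figure D4:**
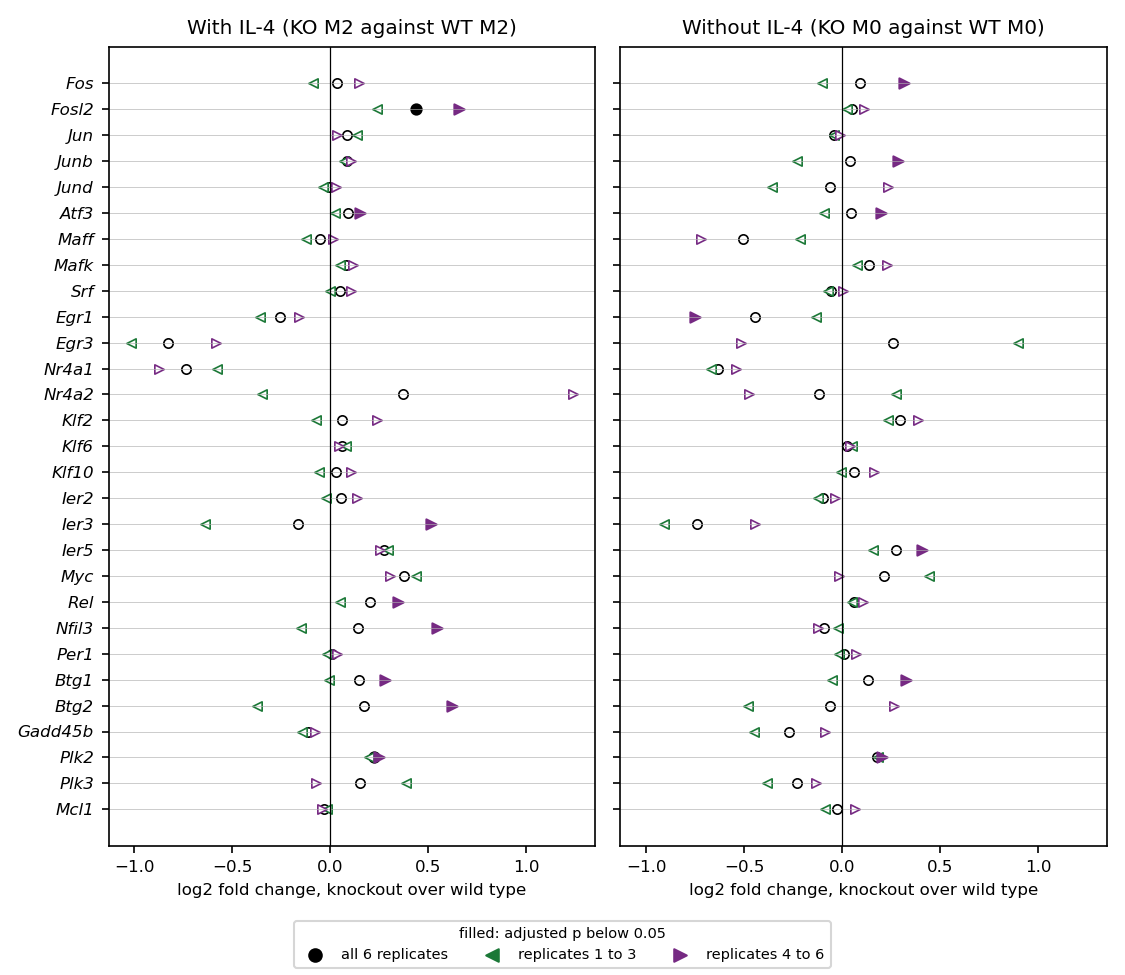
Log2 fold change of knockout over wild type for the 29 tested genes with IL-4 (left) and without IL-4 (right), from all 6 replicates (circles), replicates 1 to 3 (left-pointing triangles) and replicates 4 to 6 (right-pointing triangles), filled where the adjusted p was below 0.05. The filled points of replicates 4 to 6 are 8 in the left panel and 7 in the right, replicates 1 to 3 have none, and the 2 filled circles, both in the left panel, are Fosl2 and, behind the triangles, Plk2.

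Lists of related genes were read beside the members, chosen like them with earlier results of these data known. Of 33 tested genes among other immediate early and early feedback genes, 15 rose and 7 fell with IL-4 in the knockout and 13 rose and 6 fell in the wild type. The shares of all genes, for this and the following lists, were 23.6% in the knockout and 16.4% in the wild type, and in the genotype comparisons 4.59% with IL-4 and 4.52% without it. In the knockout these included Bhlhe40 (2.08), Klf4 (1.72) and Egr2 (1.68), transcription factors of alternatively activated macrophages, and, lower, the NF-kB cofactor gene Nfkbiz (-2.20), given as log2 fold changes. In the wild type the largest were Klf4 (1.65), Bhlhe40 (1.61), Egr2 (1.41) and the kinase gene Sgk1 (1.15). Egr2 thus rose in both genotypes, while its relative Egr1 did not pass in either. In the genotype comparison 2 of the 33 were higher and 5 lower with IL-4, and 1 was higher and 5 lower without it. With IL-4 the largest were Cyr61 (-3.63) and Ctgf (-3.63), matricellular genes made by stromal cells, and the feedback genes Socs3 (-1.84) and Nfkbiz (-1.14). Without IL-4 they were Cyr61 (-3.85), Ctgf (-3.56), the prostaglandin synthase gene Ptgs2 (-2.21) and Socs3 (-2.11). The stromal marker sum was lower in the knockout in the same comparisons, and its part in these values was not tested. The median log2 fold change of the 33 was 0.33 with IL-4 in the knockout and 0.04 in the wild type, and in the genotype comparisons it was -0.05 with IL-4 and -0.13 without it.

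Of 22 other bZIP genes whose proteins can pair with AP-1 members, 6 rose and 6 fell with IL-4 in the knockout and 5 rose and 4 fell in the wild type. Batf3 rose most, at log2 fold changes of 1.87 in the knockout and 1.49 in the wild type. Cebpb, a regulator of macrophage polarisation genes, had 0.71 in the knockout and 0.55 in the wild type, and Maf, a large Maf protein of macrophages, fell, at -0.90 in the knockout and -0.64 in the wild type. The median of the 22 was 0.06 in the knockout and 0.03 in the wild type. In the genotype comparison Creb5 was the single gene of the 22 that passed with IL-4, higher in the knockout at 0.57. Without IL-4, 1 of the 22 was higher (Creb5, 0.56) and 2 were lower, among them Atf5 (-0.41). Of 25 upstream kinases and SRF cofactors, 5 rose and 4 fell with IL-4 in the knockout and 3 rose and 4 fell in the wild type. Mapk11, a p38 isoform, fell, at -1.23 in the knockout and -0.91 in the wild type. Rps6ka5, which encodes the CREB and histone kinase MSK1, fell, at -1.12 in the knockout and -0.76 in the wild type, and so did the ternary complex factor gene Elk3, at -0.84 in the knockout and -0.63 in the wild type. Mapkapk3, the closest relative of Mapkapk2, rose, at 0.79 in the knockout and 0.52 in the wild type. The median of the 25 was 0.04 in the knockout and 0.00091 in the wild type. In the genotype comparison 1 was higher (Mkl2, 0.33) and 1 lower (Elk3, -0.40) with IL-4, and 1 was lower (Elk1, -0.26) without it. Of 15 cytoskeletal targets of SRF and its MRTF cofactors, 3 rose and 4 fell with IL-4 in the knockout, led by Zyx (0.81), and 3 rose and 3 fell in the wild type, led by Acta2 (-0.61). In the genotype comparison 2 of the 15 were higher and 5 lower in each state. Myl9 (-3.87 with IL-4 and -3.74 without it), Fhl2 (-3.11 with IL-4 and -3.52 without it), Tagln (-2.81 with IL-4 and -2.97 without it) and Acta2 (-2.80 with IL-4 and -3.39 without it), genes that smooth muscle and activated fibroblasts express, had the largest values. The stromal marker sum was lower in the same comparisons, and its part was not tested. The median of the 15 was -0.03 with IL-4 in the knockout and -0.15 in the wild type, and in the genotype comparisons it was 0.08 with IL-4 and 0.02 without it.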

How the data were processed

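RNA from 24 macrophage libraries was sequenced as 40 bp single-end reads, per the labels' protocols. The submitters' processing notes name CASAVA 2.8.0, Bowtie2 2.3.4.1, RSEM 1.3.0, edgeR and the mm10 build. The authors deposited expected counts per gene, which are RSEM estimates already rounded to whole numbers per the file headers, and a table of GETMM signal, which was used for levels between genes.

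Genes with a minimum count of 10 by filterByExpr were kept (12797, with 99.8% of the counts), scaled by TMM and fitted once over the 4 groups with edgeR 4.0.16 (robust quasi-likelihood test, R 4.3.3). P-values were adjusted by Benjamini-Hochberg across the genes tested, and the threshold is 0.05. The spread between libraries of a group was well above sampling noise for every pair (lowest chi-square per degree of freedom 2.68), so no library was counted as a duplicate. The 32 members, all named whatever their result, and the other lists, of which up to 4 called genes per comparison with the largest absolute fold change are named (1 called gene is not reported here), were chosen with earlier results of these data known. Alternatives were size factors, DESeq2 1.42.0, limma 3.58.1 on log2(GETMM + 1) or log2(GETMM + 0.1), filters, a fit with the library-number set as a term, blocks, replicates 1 to 3 or 4 to 6 alone and leaving out single libraries, the last chosen after seeing the data. Depth per library limits the genes with few counts, and intervals at a count of 0 cover counting error only.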

Additional observations from a re-analysis of the deposited data

Results flagged for a closer look

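Among the 128 groups of 6 libraries formed by 32 genes and 4 groups, 7 had a library far from the other 5 on the CPM scale by Dixon's criterion, where chance flags about 1 in 20, or 6.4 groups. WT M2 replicate 2 held 3 of them, with the highest Jund (117 CPM, next 81.2), the highest Srf (24.5 CPM, next 19.2) and the lowest Klf6 (239.6 CPM, next 287). WT M2 replicate 3 had the lowest Plk3, at 5.71 CPM with the next at 8.25, and this is the library in the WT M0 range. KO M0 replicate 1 had the highest Ier2 (7.08 CPM, next 5.87) and the lowest Per1 (14.3 CPM, next 15.8). WT M0 replicate 1 had the lowest Junb, at 30.9 CPM with the next at 43.2. Leaving out the library named beside each gene changed no call of that gene in the 5 comparisons except for Jund. Without WT M2 replicate 2 Jund passed with IL-4 in the knockout, at a log2 fold change of 0.32 and adjusted p = 0.0227 in edgeR's test. The same call came without KO M2 replicate 3, KO M0 replicate 4 or KO M0 replicate 6, none flagged for Jund. Their edgeR adjusted p were 0.0329, 0.0365 and 0.0297, against 0.0644 in the main fit.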

How the results depend on the processing

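The number of the 29 genes past the threshold stayed within 1.5 times of its value for IL-4 in the knockout (14) and in the wild type (13) under 12 of 13 alternatives, and in replicates 1 to 3 alone it was 9 in the knockout and 8 in the wild type, where each group has 3 libraries. Fos, Fosl2, Atf3, Ier3, Nfil3, Gadd45b and Plk3 passed in both genotypes under all 13 alternatives and in all 24 fits without a single library. Klf6, Rel, Maff and Btg1 lost both IL-4 calls in replicates 1 to 3, and Nr4a1, Maff and Btg1 the wild-type call and Egr3 the knockout call in replicates 4 to 6. Jun lost its knockout call in both of these sets and without a filter, and Mafk its wild-type call in the same fits and in the fit of 2 groups only. Without the 3 libraries numbered apart, Btg1 lost its knockout call and Maff its wild-type call. Gains were Mcl1 in the knockout (DESeq2, both limma fits, the library-number set as a term, the replicate block, replicates 4 to 6, without the 3 libraries) and in the wild type (the set term, without the 3 libraries), Klf10 in both genotypes (the set term, replicates 4 to 6, without the 3 libraries), and Egr3 in the wild type (2 groups only, the set term, both blocks). Jund gained a call in the knockout by DESeq2, Myc in the knockout in replicates 4 to 6, and Jund, Nr4a2 and Btg2 in the wild type in replicates 4 to 6. The cause of these changes was not tested.

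For KO M2 against WT M2 the count of 2 became 1 without a count filter, 1 without the 3 libraries numbered apart (KO M2 replicate 2, WT M2 replicate 2 and WT M0 replicate 3), 1 by limma at either pseudocount, 0 in replicates 1 to 3 and 8 in replicates 4 to 6. Ier5 gained a call in the fit of 2 groups only and with the set term, and Myc in the fit of 2 groups only, where Plk2 lost its call. Ier3 was reversed in replicates 4 to 6, at 0.52 against -0.17 in all replicates. For KO M0 against WT M0 the count of 0 became 3 with the library-number set as a term (Ier5 and Plk2 higher, Gadd45b lower), 7 in replicates 4 to 6 and 1 by limma on log2(GETMM + 1) (Nr4a1, lower). For the difference between responses it stayed at 0 under every alternative run. The cause of these changes was not tested.

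Leaving out each library in turn gave 13 to 16 genes for IL-4 in the knockout, 12 to 14 in the wild type, 1 to 2 for KO M2 against WT M2, 0 to 1 for KO M0 against WT M0 and 0 for the difference. Deviations from the group means correlated more between same-numbered M2 and M0 libraries, at a median of 0.17 in the knockout and 0.13 in the wild type. Differently numbered libraries had medians of -0.03 in the knockout and -0.05 in the wild type. Above 0.1 stood 4 of 6 KO M2 and KO M0 pairs and 4 of 6 WT M2 and WT M0 pairs, with lowest values of -0.04 in the knockout and 0.01 in the wild type. Of the KO M2 and KO M0 libraries 4 of 6 each correlated best with their own number, and of the WT M2 and WT M0 libraries 2 and 3 of 6. With the replicate number as a block the counts were 15 (Mcl1 gained), 14 (Egr3 gained, adjusted p = 0.0480 in edgeR's test), 2, 1 (Plk2) and 0 in the order above, and with the LS number of the labels as a block 14, 14 (Egr3 gained, adjusted p = 0.0479 in edgeR's test) and, for the difference, 0. Over all genes the LS block gave 3446 calls with IL-4 in the knockout and 2622 in the wild type, against 3024 and 2103 in the unpaired fit.

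Over all genes, counts moved by more than 1.5 times as follows. In replicates 1 to 3 they were 1469 for IL-4 in the knockout (3024 in all replicates), 860 in the wild type (2103) and 309 for KO M2 against WT M2 (588). In replicates 4 to 6 they were 1059 for KO M2 against WT M2, 953 for KO M0 against WT M0 (579) and 21 for the difference (0). The library-number term gave 919 for KO M2 against WT M2 and 1044 for KO M0 against WT M0, and the difference had 1 gene by DESeq2, 3 by limma on log2(GETMM + 1) and 2 with the LS block. No other scaling moved the median of all genes by over 0.1 on the log2 scale. Depth limits Fosb, Fosl1, Nr4a3, Egr3, Nr4a2 and Nr4a1, whose values rest on few counts per library.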

Other observations

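Some unstimulated knockout libraries stood at different levels in replicates 4 to 6 and replicates 1 to 3 for several members, of which Gadd45b, Atf3 and Jund are given. Gadd45b had 52.9, 54.7 and 52.7 CPM in replicates 4 to 6 of KO M0, against 42.6, 39.5 and 37.2 CPM in replicates 1 to 3. Atf3 had 494, 473 and 464 CPM in replicates 4 to 6 of KO M0, against 402, 378 and 393 CPM in replicates 1 to 3. Jund had 78.5, 71.0 and 81.1 CPM in replicates 4 to 6 of KO M0, against 58.9, 52.7 and 57.0 CPM in replicates 1 to 3. For each of these 3 genes the 2 sets of KO M0 libraries did not overlap, while the same sets of WT M0 overlapped (53.1, 57.1 and 61.8 CPM against 48.6, 54.8 and 62.0 CPM for Gadd45b, 399, 423 and 432 CPM against 392, 409.8 and 468 CPM for Atf3, and 60.7, 67.5 and 69.2 CPM against 64.8, 77.0 and 78.0 CPM for Jund). Other members also differed between these KO M0 sets. Means were higher in replicates 4 to 6 for Junb, Ier5, Btg2 and Plk3, and lower for Egr1, Egr3 and Myc. Plk3 differed in WT M0 as well, with means of 3.09 CPM in replicates 1 to 3 and 5.01 CPM in replicates 4 to 6. Its KO M0 means were 2.33 and 4.56 CPM in the same order. How many of all genes separate in this way was not counted. The genes were picked after their values were seen, and no test was made.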
